A study of Mus musculus with 8 samples.

Results

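The genes through which morphine and the endogenous opioid peptides act were examined in mouse embryonic stem cells (mESCs). They comprised the opioid receptors Oprm1, Oprd1, Oprk1 and Oprl1, the opioid growth factor receptor Ogfr, the peptide precursors Penk, Pdyn, Pomc and Pnoc, and Tlr4, an innate immune receptor at which morphine has also been described to act. For brevity all 10 genes, Tlr4 included, are called the opioid genes below. Loci of the RNA-Seq count table were assigned to a gene by their most frequent gene name, which gave 53 of 44396 loci for these 10 genes. The cells carried a GFP reporter driven by Oct4 and were grown without feeders in medium with LIF and 2i. They received NaCl vehicle (control) or 10 µM morphine for 24 h. Each condition had 2 RNA-Seq libraries and 2 ChIP-Seq libraries for H3K27me3, the histone mark deposited by Polycomb Repressive Complex 2. All libraries came from the same reporter line, and the study describes the ChIP-Seq replicates as biological. For the RNA-Seq replicates no origin from separate cultures is given, so the RNA-Seq tests measure the spread between these libraries, which may be technical.

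Opioid receptors are G protein-coupled receptors that lower cAMP and neuronal excitability. Morphine acts mainly at the µ receptor, encoded by Oprm1, whereas the δ, κ and nociceptin receptors are encoded by Oprd1, Oprk1 and Oprl1. Their ligands are cut from larger precursors, so that Penk gives enkephalins, Pdyn dynorphins, Pomc β-endorphin together with melanocortins and adrenocorticotropin, and Pnoc nociceptin. Ogfr is not a G protein-coupled receptor but a perinuclear protein that binds met-enkephalin and restrains proliferation. In mESCs, H3K27me3 commonly lies over CpG-rich promoters of developmental genes that are silent or weakly transcribed.

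The promoters shown here differ in their CpG content, which is set beside their H3K27me3 peaks further on. Each window holds 250 bases before and 50 bases after an annotated start (RefSeq, GRCm38.p6), is written 5′ to 3′ on the strand of the gene, and has every CpG in capitals. The windows are Oprm1 at chr10:6788320-6788619 on the plus strand, Oprd1 at chr4:132144437-132144736 on the minus strand, Ogfr at chr2:180589157-180589456 on the plus strand, Pdyn at chr2:129699889-129700188 on the minus strand and Pomc at chr12:3954695-3954994 on the plus strand.
Oprm1: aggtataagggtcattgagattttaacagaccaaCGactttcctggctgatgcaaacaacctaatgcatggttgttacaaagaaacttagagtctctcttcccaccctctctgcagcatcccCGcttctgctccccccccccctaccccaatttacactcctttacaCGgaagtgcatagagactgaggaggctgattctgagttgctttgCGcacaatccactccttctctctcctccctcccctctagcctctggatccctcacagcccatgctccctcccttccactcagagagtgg
Oprd1: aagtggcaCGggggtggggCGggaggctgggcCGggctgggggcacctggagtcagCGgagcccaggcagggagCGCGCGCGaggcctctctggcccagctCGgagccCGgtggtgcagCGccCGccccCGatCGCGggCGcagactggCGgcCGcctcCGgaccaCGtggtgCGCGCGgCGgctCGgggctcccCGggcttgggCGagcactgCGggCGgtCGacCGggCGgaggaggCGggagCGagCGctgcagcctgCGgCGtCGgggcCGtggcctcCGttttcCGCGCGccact
Ogfr: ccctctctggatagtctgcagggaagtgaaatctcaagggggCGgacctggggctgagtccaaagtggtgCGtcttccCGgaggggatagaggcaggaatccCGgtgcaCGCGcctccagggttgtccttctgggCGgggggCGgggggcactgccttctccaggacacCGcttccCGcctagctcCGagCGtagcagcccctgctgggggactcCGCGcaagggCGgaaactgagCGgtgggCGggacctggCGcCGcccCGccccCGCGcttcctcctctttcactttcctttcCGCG
Pdyn: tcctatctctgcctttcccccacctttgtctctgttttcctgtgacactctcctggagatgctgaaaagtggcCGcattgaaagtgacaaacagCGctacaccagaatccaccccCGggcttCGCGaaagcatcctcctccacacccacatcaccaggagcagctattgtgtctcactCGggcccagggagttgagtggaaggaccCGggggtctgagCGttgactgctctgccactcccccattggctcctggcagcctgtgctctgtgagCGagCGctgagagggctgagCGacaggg
Pomc: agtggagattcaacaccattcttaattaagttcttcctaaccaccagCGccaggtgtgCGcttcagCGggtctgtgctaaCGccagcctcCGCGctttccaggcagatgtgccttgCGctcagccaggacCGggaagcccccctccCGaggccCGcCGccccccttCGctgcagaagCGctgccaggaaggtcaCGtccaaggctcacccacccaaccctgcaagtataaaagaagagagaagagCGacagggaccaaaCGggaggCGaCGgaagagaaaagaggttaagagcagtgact

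The Oprd1 window was the richest, with 43 CpGs, a GC content of 79.3% and 4 GC boxes. The Ogfr window held 24 CpGs and 7 GC boxes at 68.0% GC. The Pomc window held 18 CpGs, 1 GC box and 1 TATA box at 59.0% GC, and the printed Pdyn window held 11 CpGs at the same GC content. The other Pdyn window held 5 CpGs. The 3 Oprm1 windows held 3, 4 and 5 CpGs, and the 3 Oprl1 windows held 5, 2 and 2, so every window of these receptor genes lay below the median of all promoters. Over all 32851 promoters of the same length the median was 7 CpGs, with quartiles of 3.0 and 20.0. Motifs were searched on both strands. The GC box was defined by the letters GGGCGG, which 35.7% of all promoters held. The TATA box was searched as TATAAA, with matches in 13.6% of all promoters. The full cAMP response element, TGACGTCA, was in 1.79% of promoters and in 0 of the windows of these genes. The table held 11 windows for 6 of the 10 genes, which did not include Oprk1, Penk, Pnoc and Tlr4.

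Total counts per RNA-Seq library ran from 25081266 to 29531096. The limit that a count of 0 allows, 3 counts, equals 0.102 to 0.119 CPM (counts-per-million of the TMM-scaled library size). These limits cover counting error only. The label of the cells was checked with marker genes. All 8 pluripotency markers passed the filter on low counts, with summed levels of 3790 to 4070 CPM, led by Pou5f1 (Oct4) at 727 CPM per kb. Neuronal markers summed to 339 to 363 CPM, with 6 of 8 tested, and nearly all of this was Stmn2 and Tubb3. The macrophage and microglia list, the cells in which Tlr4 is best known, summed to 25.8 to 29.4 CPM with 2 of 8 tested, and the fibroblast list to 14.3 to 16.1 CPM with 4 of 8 tested. In each of these 4 lists 0 genes were called between conditions at an adjusted p of 0.05 by edgeR's quasi-likelihood test. Pou5f1 came close to the threshold, at 1180 and 1270 CPM in control and 1510 and 1370 CPM after morphine. Its log2 fold change was 0.23 with an SE of 0.05 (edgeR quasi-likelihood test, adjusted p = 0.0525). Of the 8 pluripotency markers, 3 had a higher and 5 a lower level after morphine by this estimate.

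In mESCs, 5 of the 10 opioid genes were transcribed above the filter, namely Ogfr, Penk, Pdyn, Pomc and Oprl1. Asking for more than 1 CPM in every library of a condition left 3, without Pomc and Oprl1. The filter (edgeR's filterByExpr) asks for about 10 counts in at least 2 libraries. The other 5, Oprm1, Oprd1, Oprk1, Pnoc and Tlr4, had between 0 and 9 counts in every library. Divided by locus length, the levels spanned Ogfr at a mean of 19.1 CPM per kb over the 4 libraries to Tlr4 at 0.00907 and Oprm1 at 0.

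The classical receptors Oprm1, Oprd1 and Oprk1 were all below the filter. Oprm1, the main morphine receptor, had 0 counts in control replicates 1 and 2 and 0 in morphine replicates 1 and 2, over all of its 30 loci. These loci are separate annotated transcripts of a gene at chr10:6758506-7038198, and in each library the count allows a level of at most 0.102 to 0.119 CPM. Oprm1 transcripts were therefore not detectable at this depth in either condition.

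Oprd1, the δ receptor, was counted 9 and 4 times in control and 2 and 2 times after morphine. Both morphine libraries were below both controls, but the counts were too few for the filter and the main fit did not test them. In the alternative fit without the filter, 0 loci of the opioid genes were called. Oprk1, the κ receptor, had 7 and 9 counts in control and 4 and 8 after morphine at its most counted locus, and these ranges overlapped. These were bulk samples, in which fewer cells with a transcript and less transcript per cell cannot be told apart.

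Oprl1, the nociceptin receptor, was the only receptor of the opioid family that passed the filter. Its most counted locus, of 3138 bp, had 20 and 29 counts in control and 19 and 23 after morphine. The conditions overlapped, at 0.857 ± 0.182 CPM in control and 0.784 ± 0.0466 CPM after morphine (SD, n = 2 each). The log2 fold change was -0.13 with an SE of 0.31 and a 95% interval of -0.81 to 0.55 (edgeR quasi-likelihood test, adjusted p = 0.861). Over its 11 loci, which share exons and reads, the log2 fold changes ran from -0.19 to 0.36, and the most counted locus had 0.12 without control replicate 2, -0.33 without control replicate 1 and -0.07 without morphine replicate 1.

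Ogfr stood far above all the others. Its locus of 2377 bp (gene at chr2:180589245-180595836, plus strand) had 1190 and 1306 counts in control and 1234 and 1269 after morphine. Scaled to library size, the levels were 43.3 and 44.4 CPM in control and 48.8 and 45.1 CPM after morphine, so the conditions did not overlap, but the higher control and the lower morphine library were closer to each other than the controls were. The mean was 43.8 ± 0.741 CPM in control and 46.9 ± 2.62 CPM after morphine (SD, n = 2 each). The log2 fold change was 0.10 with an SE of 0.06 and a 95% interval of -0.04 to 0.23 (edgeR quasi-likelihood test, adjusted p = 0.415). With the trend across locus length and GC content removed, the estimate was -0.04, and it was 0.04 without morphine replicate 1 and 0.15 without morphine replicate 2. At 19.1 CPM per kb, the gene lay above 74.9% of the 15075 named genes tested. The named loci whose log2 CPM over the 4 RNA-Seq libraries lay closest to Ogfr by Euclidean distance were Gjb5 (0.0327), Slc25a28 (0.0353) and Ppme1 (0.0397).

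Of the peptide precursors, Penk was the most transcribed. It had 178 and 209 counts in control and 186 and 214 after morphine, at a locus of 1593 bp. Scaled to library size, these are 6.48 and 7.1 CPM in control and 7.35 and 7.6 CPM after morphine, so the same held for Penk, with morphine replicate 1 nearer to control replicate 2 than the controls were to each other. The means were 6.79 ± 0.439 CPM in control and 7.48 ± 0.176 CPM after morphine (SD, n = 2 each). The log2 fold change was 0.14 with an SE of 0.12 and a 95% interval of -0.11 to 0.39 (edgeR quasi-likelihood test, adjusted p = 0.542). It was 0.07 without control replicate 1 and 0.21 without control replicate 2. The Penk locus shares 201 exonic bases with AK043612 on the opposite strand, a locus that had 10 to 12 counts per library. Whether the counting used strand is not stated, so reads of the shared bases cannot be told apart.

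Pdyn, the dynorphin precursor, had 78 and 86 counts in control and 88 and 94 after morphine. Its levels were 2.88 ± 0.0581 CPM in control and 3.41 ± 0.0989 CPM after morphine (SD, n = 2 each), and both morphine libraries lay above both controls. The log2 fold change was 0.24 with an SE of 0.17 and a 95% interval of -0.12 to 0.60 (edgeR quasi-likelihood test, adjusted p = 0.45). The second Pdyn locus, another annotated transcript with 77 to 94 counts, gave 0.24 as well.

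Pomc had 21 and 23 counts in control and 28 and 22 after morphine. The means were 0.773 ± 0.0119 CPM in control and 0.944 ± 0.23 CPM after morphine (SD, n = 2 each), and only morphine replicate 1, at 1.11 CPM, stood apart, since morphine replicate 2 and control replicate 2 were at 0.782 and 0.781 CPM. The log2 fold change was 0.28 with an SE of 0.31 and a 95% interval of -0.40 to 0.96 (edgeR quasi-likelihood test, adjusted p = 0.665). It was 0.02 without morphine replicate 1 and 0.52 without morphine replicate 2. Pnoc, the nociceptin precursor, had 2 and 7 counts in control and 8 and 2 after morphine, below the filter and with overlapping conditions.

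Tlr4 had 3 and 3 counts in control and 1 and 1 after morphine over a locus of 7891 bp, the longest among those shown. All 4 values are at or under the limit of 3 counts, so no fold is given. Its low level stood beside low summed levels of macrophage markers, most of them from Cd68.

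The order per kb of locus was Ogfr, Penk, Pdyn, Pomc, Oprl1, Pnoc, Oprk1, Oprd1, Tlr4 and Oprm1. From Ogfr to Oprl1 the means were 19.1, 4.48, 1.25, 0.648 and 0.261 CPM per kb, and the libraries of neighbours did not overlap. Pnoc, Oprk1 and Oprd1, with means of 0.0809, 0.0533 and 0.0382 CPM per kb, overlapped with each other and cannot be ordered beyond the spread between libraries. As background, Pomc is best known from pituitary and arcuate cells and Penk, Pdyn and Pnoc from neurons.

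**Figure D1:**
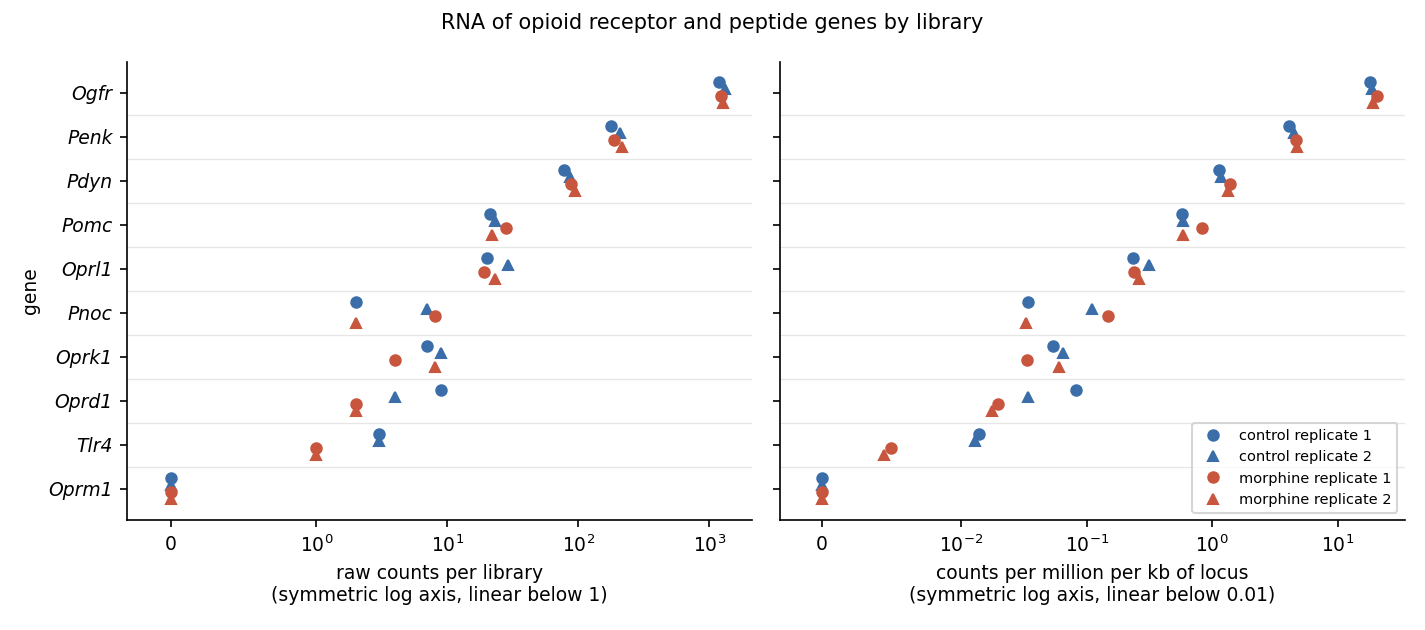
Raw counts (left) and CPM per kb of locus (right, both on symmetric log axes) of the 10 genes in the 4 RNA-Seq libraries, with 1 point per library. Ogfr, at 1190 to 1306 counts, stands above all other genes, Penk, Pdyn, Pomc and Oprl1 follow, and Oprm1 is at 0 in all 4 libraries.

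Between conditions, 0 of the 16 tested loci of these genes were called, and 0 had an unadjusted p under 0.05. In the same fit 309 of 20350 loci, 1.52%, were called, of which 125 (0.614%) were higher and 184 (0.904%) lower after morphine. With total counts as the scaling, 515 were called, 281 higher and 234 lower. The number of called loci depended on single libraries, with 13 called without morphine replicate 1, 1619 without control replicate 2 and 604 without morphine replicate 2, and 0 loci of the opioid genes were called in any of these fits. The morphine libraries lay wholly above the controls in 4 genes (Ogfr, Penk, Pdyn and, by the narrow margin given above, Pomc) and wholly below in 2 (Oprd1 and Tlr4). Over 20891 named genes with a count, 24.2% had both morphine libraries above both controls and 24.0% had both below. For the 5 tested genes the 95% intervals given above were widest for Pomc and Oprl1 and narrowest for Ogfr.

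H3K27me3 peaks were called at the promoters of Oprd1, Pdyn and Pomc in every ChIP-Seq library, at that of Penk in most, and not at those of the other receptors. A promoter was taken as 1 kb on either side of any annotated start of the gene (GENCODE vM21 basic), and a peak as a region called by the authors in a single library at a p of 1e-05. Oprd1, Pdyn and Pomc had a promoter peak in all 4 ChIP-Seq libraries. Penk had a peak in 3 libraries and Pnoc in 1, while Oprm1, Oprk1, Oprl1, Ogfr and Tlr4 had none. Per library, 4 and 3 of the 10 genes were marked in control and 4 and 5 after morphine. The count of 5 includes the Pnoc peak near a second start, and was 4 with 1 start per gene. Among all 55450 annotated genes the shares per library were 9.17% and 9.83% in control and 9.14% and 9.97% after morphine, and 6.23% had a peak in all 4. A promoter peak in both libraries of a condition was found at 3 of the 10 genes in control and 4 after morphine, beside 7.73% and 7.64% of all genes. Counting only peaks with a score of at least 100, these became 2 and 1 of the 10 genes, beside 4.28% and 3.93% of all genes, as Oprd1 then kept a peak in morphine replicate 1 alone and Penk and Pomc lost theirs in that library. Without that threshold, among 21951 protein-coding genes, 11.7% had a promoter peak in all 4 libraries, 3.21% in exactly 3, 4.81% in exactly 1 and 77.1% in none.

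The Oprd1 peaks were broad and central. In control replicate 1 the peak (mm10, chr4:132141228-132146753) ran from -2267 to 3258 bp relative to the start, 5525 bp in all. The peaks were 5169, 4984 and 5368 bp wide in control replicate 2 and morphine replicates 1 and 2. Their scores, -10 times the log10 of the peak p-value, were 76.37 and 99.76 in control and 105.72 and 85.68 after morphine. These were middling scores, at percentiles 42.2, 63.2, 66.1 and 51.9 of their own libraries. Scores are comparable only within a library and hold no read counts, so no test of enrichment between conditions was made.

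At Pdyn (control replicate 1, chr2:129697743-129701616) the peaks were 3873 and 4401 bp wide in control and 3856 and 2952 bp after morphine. The narrowest, in morphine replicate 2, was accompanied by a further peak at 10752 to 13727 bp from the start, across the 3′ end of the gene, that the other libraries did not have. That peak had a score of 55.64, near the lowest deposited score of 50. At Pomc (control replicate 1, chr12:3953129-3955572) the peaks lay mostly upstream of the start, reaching 621 and 1015 bp into the gene in control and 386 and 1595 bp after morphine. The promoter peaks of Pdyn and Pomc scored between 97.95 and 153.16.

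Penk was marked in control replicate 1 and in both morphine libraries but not in control replicate 2. In control replicate 1 the peak (chr4:4135444-4140822) had a score of 247.01, at percentile 94.6 of that library. In morphine replicates 1 and 2 the peaks were wider, 6645 and 6497 bp against 5378 bp, and scored 81.3 and 150.38. In control replicate 2, the library with the most peaks (13778), the nearest peak was 167 kb away. The lists hold few very wide regions, since the widest peaks were 8472 to 8642 bp and the medians 2803 to 2911 bp. They also hold 0 peaks in the HoxA, HoxB, HoxC and HoxD clusters in all 4 libraries, of which the study used the Hox region as a positive control for the mark by ChIP-qPCR. A missing peak in these lists is therefore not a measured absence of H3K27me3, and the part of peak width in the Penk difference was not tested.

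Pnoc showed its promoter peak in morphine replicate 2 alone, from 1051 to 5556 bp inside the gene and within 1 kb of the second annotated start. Its score of 62.19 was at percentile 23.5. A further peak lay deeper in Pnoc in all 4 libraries, beginning 17912 to 18688 bp from the outermost start, with scores of 57.45 and 93.35 in control and 55.1 and 67.9 after morphine. Peaks near but outside the promoter were also seen at Oprl1, 4.99 and 4.75 kb upstream in control and 5.16 and 4.25 kb after morphine. For Ogfr, a strong peak began 7.5 and 7.3 kb downstream of the start in control and 7.56 kb in both morphine libraries, past the end of the gene, with scores of 180.08 to 256.96. No peak lay in or near the promoters of Oprm1, Oprk1 and Tlr4. Distances were measured from the outermost start of each gene. The nearest peak was at 375 to 451 kb for Oprm1, 324 to 547 kb for Oprk1 and 133 to 239 kb for Tlr4. For a downstream peak, as at Tlr4 in both control libraries, the distance includes the length of the gene.

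**Figure D2:**
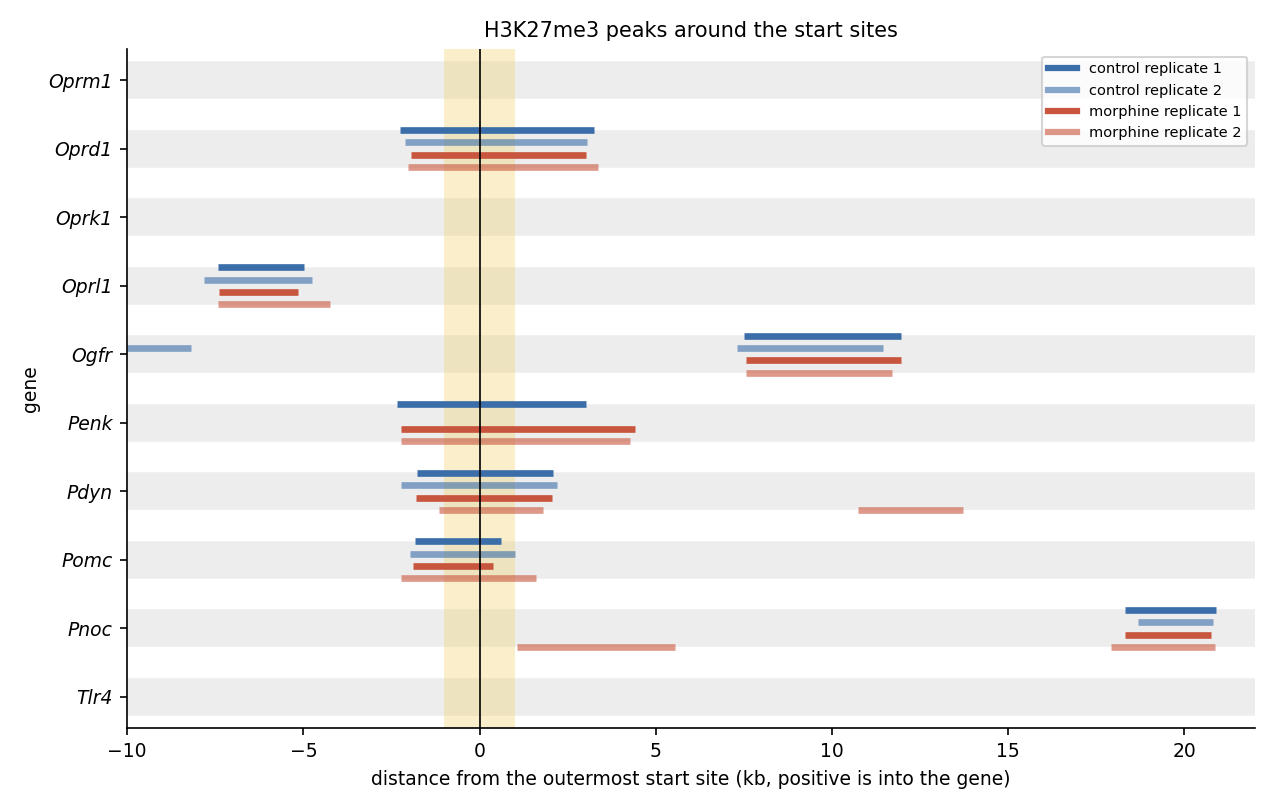
Peaks of H3K27me3 around the outermost start of each of the 10 genes (distance in kb, positive into the gene), with 1 bar per peak and 1 row per ChIP-Seq library. The shaded band marks 1 kb on either side. Bars cross the start of Oprd1, Pdyn and Pomc in all 4 libraries and that of Penk in 3.

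Transcription and promoter peaks did not run in parallel across these genes. Penk, Pdyn and Pomc passed the filter and had a promoter peak in at least 3 libraries, and Ogfr and Oprl1 passed it without a called peak. Oprd1 had peaks in all 4 libraries with 2 to 9 counts, Pnoc was below the filter with a peak in 1 library, and Oprm1, Oprk1 and Tlr4 were below the filter without a called peak. Over all genes with a RefSeq promoter and a named locus, promoter peaks in all 4 libraries were found in 14.1% of 11138 expressed genes and in 6.23% of 6327 genes below the filter.

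Read against CpG content, Oprd1 was the extreme case. For the classes of genes below, each gene was counted by its window with the most CpGs. Genes below the filter with peaks in all 4 libraries had a median of 11 CpGs in the window (quartiles 6.0 and 19.0), and those without a peak had a median of 3 (quartiles 1.0 and 6.0). Oprd1, with 43 CpGs, exceeded the upper quartile of the first class, at percentile 97.6 of all promoters. The Oprm1 windows printed above and the other 2, with 3 to 5 CpGs, lay within the quartiles of the class without a peak, and also within those of genes below the filter with peaks in 1 to 3 libraries (3.0 and 15.0, median 7). Among expressed genes, the medians were 24 CpGs with peaks in all 4, 22 with peaks in 1 to 3 and 21 without. Ogfr (24), expressed and without a called peak, was within the quartiles of its class (12.0 and 29.0), whereas Oprl1 (5, 2 and 2), of the same class, was below them. Pomc (18) was within the quartiles of expressed genes with peaks in all 4 (16 and 33) and also of those without, and Pdyn (11 and 5) was below both.

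**Figure D3:**
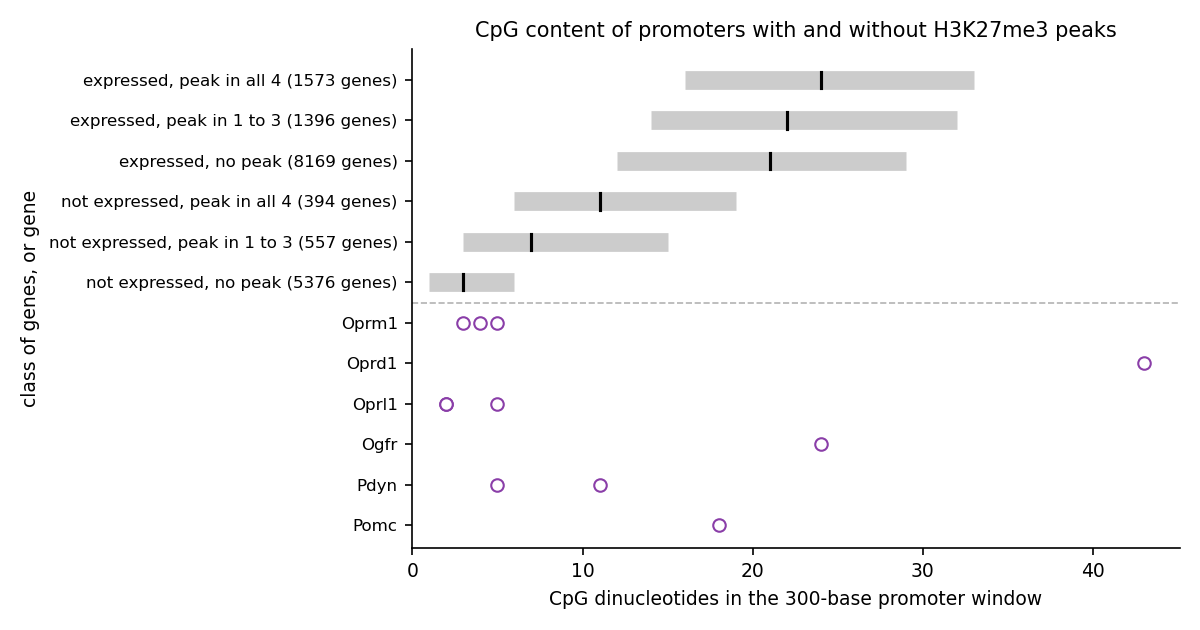
CpG dinucleotides in the 300-base promoter window. Grey bars span the quartiles and black ticks the medians of classes of genes by expression and promoter peaks, with each gene at its richest window. Open circles are all windows of the 6 matched genes. Oprd1, at 43, lies beyond every bar, whereas the Oprm1 windows, at 3 to 5, lie in the bars of genes below the filter with no peak or with peaks in 1 to 3 libraries.

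Other genes of the opioid pathway were read from 6 lists with 71 genes, of which 55 were tested, 0 rose and 2 fell (Rest and Creb1), beside 0.614% higher and 0.904% lower over all loci tested. The number called was 0 without morphine replicate 1 and 8 without control replicate 2. Of 9 processing enzymes and chaperones, 7 were tested and 0 were called, with a median log2 fold change of 0.09. The most transcribed were Ctsl (103 CPM per kb), Rnpep (24.8) and Cpe (7.37), a protease, an aminopeptidase and a carboxypeptidase that trim precursors. Rnpep came close to the threshold, with a log2 fold change of 0.24 and an SE of 0.05 (edgeR quasi-likelihood test, adjusted p = 0.0514). All 9 peptide-degrading enzymes were tested and 0 were called, with a median log2 fold change of 0.12 and the highest levels in Thop1 (47.5 CPM per kb), Npepps (44.2) and Dpp3 (42.9). Over all loci tested the median was 0.0013.

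Among 12 genes listed as other receptors of these peptides, their partners and relatives, 5 were tested and 0 were called, with a median log2 fold change of 0.19. The highest levels were those of Tmem97 (44.8 CPM per kb), Ogfrl1 (2.57) and Bdkrb2 (1.55), a bradykinin receptor. Tmem97 is not a receptor of opioid peptides, and Ogfrl1 is a relative of Ogfr named for its sequence. The melanocortin receptor genes, which bind Pomc products and are named here after their values were seen, differed in level. Mc5r had 19 and 24 counts in control and 29 and 19 after morphine and passed the filter, Mc1r had 3 to 9 counts, and Mc2r, Mc3r and Mc4r had 0 in all 4 libraries.

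The 11 regulators described at opioid receptor promoters were all tested. The highest were Pcbp2 and Pcbp1 (256 and 253 CPM per kb), poly(C)-binding proteins of a family described to act at the Oprm1 promoter, and Rest (69.1), a repressor of neuronal genes for which Oprm1 is a described target. Rest fell from 587 and 529 CPM in control to 462 and 471 CPM after morphine, with a log2 fold change of -0.26 and an SE of 0.05 (edgeR quasi-likelihood test, adjusted p = 0.0405). Creb1, the cAMP-responsive activator, fell from 43.5 and 42.0 CPM to 33.0 and 34.1 CPM, with a log2 fold change of -0.35 and an SE of 0.06 (edgeR quasi-likelihood test, adjusted p = 0.0275). The control and morphine libraries of both genes did not overlap. The median log2 fold change of the list was -0.03. Both calls were lost without morphine replicate 1 (-0.24 for Rest and -0.32 for Creb1) and with the trend across length and GC content removed (-0.20 and -0.17), and that of Rest also without control replicate 1 (-0.19) or morphine replicate 2 (-0.27).

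Of 19 genes of the TLR4 receptor complex and its signalling, 18 were tested and 0 were called, with a median log2 fold change of 0.02. Chuk (24.3 CPM per kb), Tab2 (23.6) and Nfkb1 (16.9), components of the NF-κB route, were the most transcribed, beside a Tlr4 with 1 to 3 counts. Of 11 genes of morphine transport and glucuronidation, 5 were tested and 0 were called, with a median log2 fold change of -0.04. Ugdh, which makes the donor of glucuronic acid, was at 12.9 CPM per kb, and Abcb1b and Abcb1a, the P-glycoprotein transporters that carry morphine out of cells, were at 12.7 and 5.7. As close copies of each other, these 2 transporters may share reads.

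Promoter peaks of H3K27me3 in all 4 libraries were found at 3 of 9 processing genes, 2 of 9 breakdown genes, 6 of 12 other receptors, 2 of 19 genes of TLR4 signalling, 0 of 11 promoter regulators and 3 of 11 transport and glucuronidation genes, beside 11.7% of protein-coding genes. No peak in any library was found at 2, 4, 6, 13, 11 and 8 genes of these lists, in the same order, beside 77.1% of protein-coding genes.

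**Figure D4:**
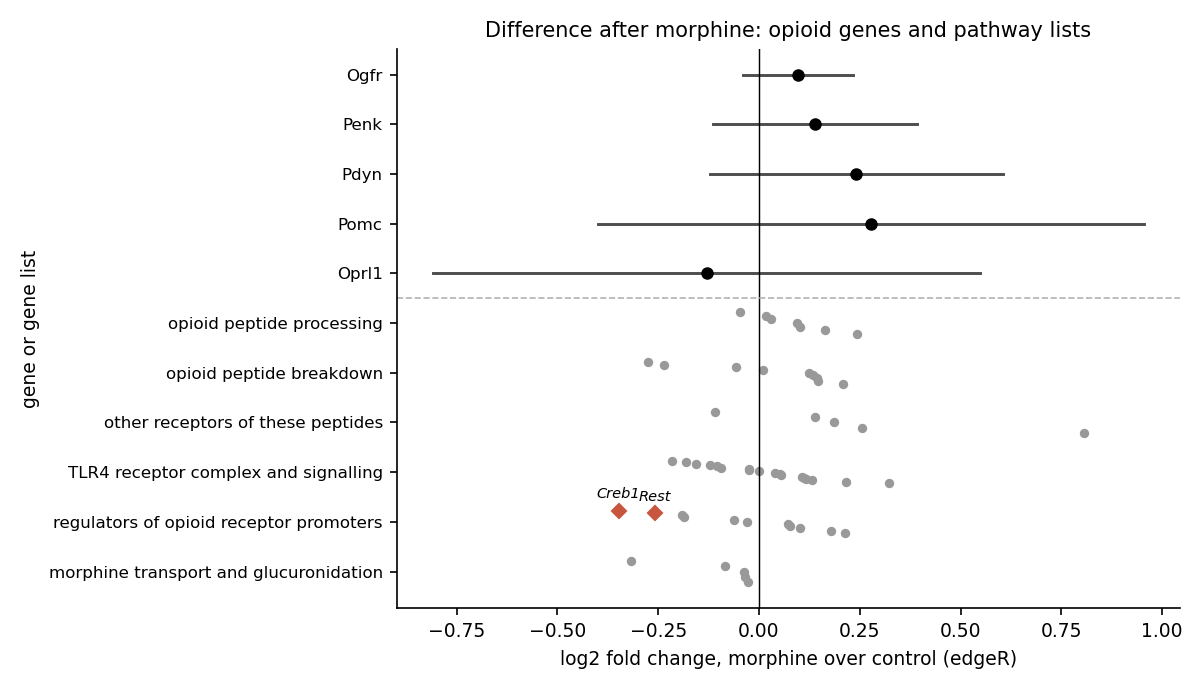
Log2 fold change (morphine over control, edgeR) of the 5 tested opioid genes, with 95% intervals, and of each tested gene in the 6 pathway lists (grey). Red diamonds are the genes past an adjusted p of 0.05, Rest at -0.26 and Creb1 at -0.35, and the intervals of all 5 opioid genes include 0.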

How the data were processed

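RNA-Seq reads were aligned by the authors to mm10 using HISAT2 (2.1.0). The authors assembled transcripts with StringTie (1.3.6) and deposited raw counts per locus from featureCounts (1.6.4). ChIP-Seq reads were mapped with Bowtie2 (2.3.5.1), and the authors ran MACS on each library, with a cutoff of 1e-05, and deposited a score of -10 times the log10 of the p-value. The control given to MACS and the strand setting of the counting are not given in the sources used here. After filterByExpr, TMM scaling was applied and conditions were compared with the quasi-likelihood test of edgeR 4.0.16 (R 4.3.3), with p-values adjusted over 20350 loci by Benjamini-Hochberg. The script was tested on simulated data. The alternatives included DESeq2 (1.42.0). Genes were represented by the locus with the most counts. The genes and lists were chosen with earlier results of these data known. The pathway lists leave out 1 gene that is not reported here. All opioid genes were named, with, of each list, called genes and the 3 highest per kb. Control and morphine libraries share replicate numbers, but deviations of same-numbered libraries from their group means correlated at only 0.0145, so no pairing was assumed. Peaks have no read counts and were described without a test. Later passages after removal of the drug were not analysed here.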

Additional observations from a re-analysis of the deposited data

How the results depend on the processing

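For the opioid genes, 0 loci were called under every alternative that gave an adjusted p. DESeq2 gave none for the Oprl1, Penk, Pdyn and Pomc loci described. Of their log2 fold changes 2 changed sign, Oprl1 to 0.1152 without control replicate 2 (-0.3294 to 0.1152 when leaving out each library) and Ogfr to -0.0371 with the length and GC trend removed. When leaving out each library, Pomc ran from 0.0156 to 0.5161, Penk from 0.0713 to 0.2137, Ogfr from 0.04 to 0.1547 and Pdyn from 0.2126 to 0.2724. The count of all loci called was 309. It was 790 with edgeR's exact test, 840 with the likelihood ratio test, 515 with total counts, 1657 without the filter, 652 with DESeq2, 69 with the length and GC trend removed and 13 to 1619 when leaving out each library. A model with the replicate number as a block called 1128 loci, 6 pathway genes and 0 loci of the opioid genes, and since the libraries share only a number, it does not pair them. Pathway genes called numbered 2, and 7 without the filter, 5 with DESeq2, 0 with the trend removed and 0 to 8 when leaving out each library. Asking for more than 1 CPM in every library of a condition left 3 opioid genes expressed in place of 5. At a peak score of at least 100, promoter peaks remained at 2 opioid genes in morphine replicate 1, 3 in morphine replicate 2 and 1 in both, against 3, 2 and 2 in control. In both libraries of a condition the main counts were 3 in control and 4 after morphine, and the shares of all genes were 7.73% and 7.64%, or 4.28% and 3.93% at that score. Morphine replicate 2 had 4 in place of 5 with the start base itself, equal numbers of strongest peaks, the stricter coverage of the window or 1 start per gene. The causes of these differences were not tested. Depth limits Oprm1, Oprd1, Oprk1, Pnoc and Tlr4, each at 9 counts or fewer.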
